A study of Mus musculus with 6 samples.

Results

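The genes described here build and run the mitotic spindle and the kinetochore. A list of 52 mouse genes of known function in mitosis, drawn up with earlier results of these data known, was matched to the array by gene symbol. Of these, 50 had a probe, and 39 were measured, meaning that at least 1 probe had a detection p-value under 0.05 on 3 or more of the 6 arrays. They make up 39 of the 12755 features that passed the same filter, and 61 of their 96 probes were kept.

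The samples were neurospheres, the floating colonies in which neural stem cells and their progeny grow in a dish. They were kept for 14 days in vitro, in medium with EGF and FGF, after dissection of the subventricular zone, where new neurons arise in adult mice. The mice were 18 months old. The groups were secondary Wip1-Tg spheres (1 array), secondary wt spheres (2 arrays), primary Wip1-Tg spheres (2 arrays) and primary wt spheres (1 array), all untreated and all on 1 beadchip. Wip1-Tg mice are transgenic for Wip1, the product of Ppm1d, a phosphatase known for switching off p53 and p38 signalling after damage. Secondary spheres are those formed again after an earlier round of spheres has been dissociated. The labels name neither the promoter nor the cell type that drives the transgene, and they do not say whether arrays of 1 group came from separate animals or cultures. A p-value here therefore reflects the spread among these 6 arrays, which may be technical in part. Whether the secondary spheres descended from the primary ones measured is not given in the labels, and sex-linked signals that bear on both points follow below.

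As background, a cell enters mitosis when Cdk1 is switched on by B-type cyclins, and its chromosomes then condense and attach to spindle microtubules through kinetochores, protein plates built on the centromere. The spindle checkpoint holds the anaphase-promoting complex inactive until every kinetochore is attached, after which sister chromatids part and the central spindle guides cytokinesis. Most genes of this machinery are transcribed late in the cell cycle under factors such as FoxM1, B-Myb and the DREAM complex, so their RNA marks dividing cells in a mixed population. In the subventricular zone such cells are mainly the transit-amplifying progenitors, and growth factors keep this kind of cell dividing within neurospheres.

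Raw array medians lay between 150.88 and 168.44 intensity units, and 38.92% to 41.3% of probes were detected. Replicate arrays of a group correlated at r = 0.9901 to 0.9907 over all features, against 0.9405 to 0.9542 between passages. Arrays of 1 passage but different genotype correlated at 0.9802 to 0.9903, which reaches into the range of replicates. Ppm1d was read by 1 of its 4 probes, at a normalised log2 intensity of 10.24 on the Wip1-Tg secondary array, 10.13 and 9.98 on the wt secondary arrays, 9.53 and 9.71 on the Wip1-Tg primary arrays and 9.29 on the wt primary array. By genotype it differed by 0.26 (SE 0.125, adjusted p = 0.5395 with limma), which misses the threshold, and whether this probe reads the transgene is not given. The labels call the samples matched for gender, yet all 4 Xist probes were detected on Wip1-Tg primary 2 and the 3 secondary arrays (mean log2 intensity 8.71 to 8.99) and none on Wip1-Tg primary 1 (4.71) or wt primary 1 (4.64). The Y-linked gene Kdm5d was detected, by 1 of 2 probes, on those last 2 arrays alone. By these signals the 2 Wip1-Tg primary arrays did not read cells of the same animal. Nor did the wt primary array share an animal with the wt secondary arrays. Sex and passage are thus partly entangled, and results are given below with and without the arrays concerned.

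Mitotic genes were lower in secondary than in primary spheres. Of the 39 measured members, 32 fell in secondary spheres at an adjusted p under 0.05 and 0 rose, in a limma fit with genotype and passage as terms and Benjamini-Hochberg adjustment over all 12755 features. Over all features, the same fit called 28.1%, of which 13.8% of all features were lower and 14.3% higher. The median passage difference of the members was -0.97 on the log2 scale, a 1.96-fold lower level, against a median of 0.04 over all features. For 35 of 39 members every secondary array lay below every primary array, which held for 21.8% of all features, and for 0 members every secondary array lay above (25% of all features). Ube2c and Dlgap5 passed the detection filter through the primary arrays alone and so had to be lower in secondary spheres. Among the other 37 members, 30 were called lower, and among the 32 members detected on all 6 arrays, 29 were. The count rested on single arrays: it was 15 without wt primary 1 and 14 without Wip1-Tg secondary 1, each the lone array of its group, 3 on the 4 arrays with Xist signal (4.76% of all features called lower) and 3 without eBayes moderation (3.34%). Over all features, 7.6% were called lower without wt primary 1 and 5.93% without Wip1-Tg secondary 1. Every fall named below is a call of the fit to all 6 arrays. The members' median passage difference was -0.83, -1.04 and -0.87 in the 3 fits with fewer arrays, and -0.97 without moderation. On the 4 arrays with Xist signal, the passage difference is that of 1 array against 1, Wip1-Tg secondary 1 minus Wip1-Tg primary 2. It is therefore a weak check with sex matched. In bulk RNA, fewer dividing cells and less RNA per cell cannot be told apart.

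By genotype the members leaned one way without any passing the test. The fitted difference was positive, meaning higher in Wip1-Tg, for 38 of 39 members, while 51.7% of all features had a positive difference. The median was 0.56 on the log2 scale, a 1.47-fold higher level, against 0.01 over all features. With limma, 0 members and 0% of all features reached an adjusted p under 0.05, the members' adjusted p-values running between 0.4345 and 0.9257. At an unadjusted p under 0.05, 27 members were higher in Wip1-Tg and 1, Kif23, was lower, against 4.93% and 5.15% of all features. With robust, trended moderation 1 feature of all was called, and it was not a member. Within both passages, Wip1-Tg arrays lay above wt arrays without overlap for 31 members, which held for 16.2% of all features, and below them for 1 (14.1% of all features).

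**Figure D1:**
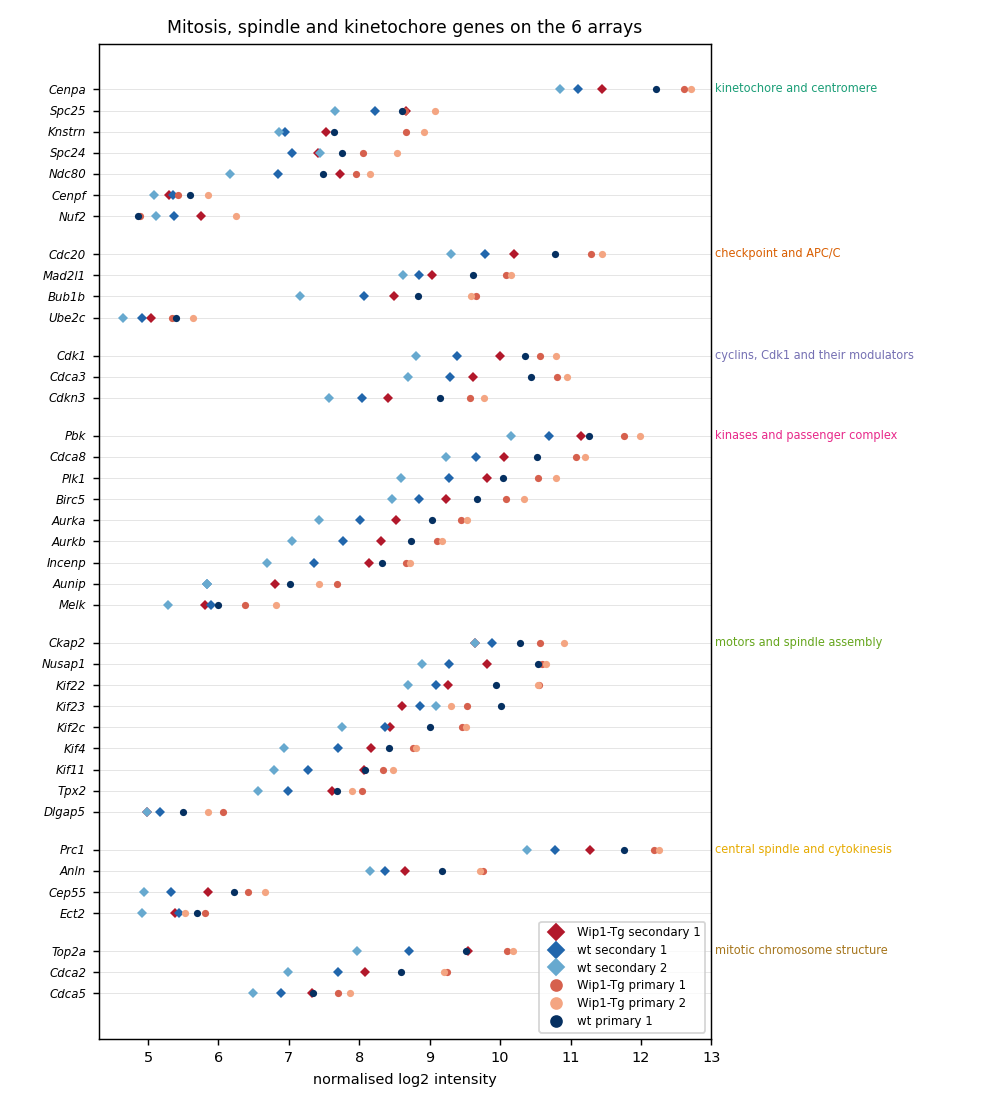
Normalised log2 intensity (horizontal axis) of the 39 measured members on the 6 arrays, grouped by function and, within a group, ordered by mean level. Diamonds are secondary and circles primary arrays, in reds for Wip1-Tg and blues for wt; for 35 members all 3 diamonds lie left of all 3 circles, and wt secondary 2 is the lowest array for 36 members.

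Promoters were read from RefSeq (GRCm38.p6), which gave a window of 250 bases before the start for 43 of the 52 listed genes (46 windows, since some genes have more than 1 start), and for 32 of the 39 measured ones (35 windows). Short motifs known from cell cycle promoters were searched on both strands, in letters CCAAT (the CCAAT box), TTTGAA (the cell cycle homology region, CHR) and TTTGGCG or TTTCCCG (an E2F type site). A CCAAT box lay in 32 of the 46 windows (69.6%), against 33.8% of all 32851 promoter windows in the table, 35.4% of those of protein-coding genes and 54.3% of those of the replication genes described below. Among the measured members' windows it lay in 62.9%. A CHR lay in 16 (34.8%; 40% of the measured members' windows), against 16% of all windows and 15.2% of those of replication genes. Both motifs lay in 13 (28.3%), against 5.55% of all windows and 8.7% of those of replication genes. No CHR match overlapped a CCAAT match. An E2F type site lay in 2 windows (4.35%), those of Birc5 and Nusap1, against 3.92% of all windows, and in 19.6% of those of replication genes. The promoters of 5 genes that hold both motifs and act at different steps of mitosis are shown as the 120 bases before the start in the direction of transcription. Capitals mark CCAAT (or ATTGG on the other strand) and TTTGAA (or TTCAAA).
Cdk1, chr10:69352913-69353032, minus strand: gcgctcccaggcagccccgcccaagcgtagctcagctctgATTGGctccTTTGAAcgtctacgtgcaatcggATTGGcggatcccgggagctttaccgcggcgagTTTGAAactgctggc
Cdc20, chr4:118437344-118437463, minus strand: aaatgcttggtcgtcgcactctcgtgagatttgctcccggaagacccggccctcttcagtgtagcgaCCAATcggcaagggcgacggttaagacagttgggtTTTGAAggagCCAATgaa
Top2a, chr11:99024190-99024309, minus strand: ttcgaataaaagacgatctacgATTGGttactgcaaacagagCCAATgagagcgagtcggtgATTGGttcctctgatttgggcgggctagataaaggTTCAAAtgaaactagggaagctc
Kif11, chr19:37376262-37376381, plus strand: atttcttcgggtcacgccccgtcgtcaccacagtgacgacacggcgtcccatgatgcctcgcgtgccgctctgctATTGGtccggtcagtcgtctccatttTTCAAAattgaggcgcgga
Kif22, chr7:127042421-127042540, minus strand: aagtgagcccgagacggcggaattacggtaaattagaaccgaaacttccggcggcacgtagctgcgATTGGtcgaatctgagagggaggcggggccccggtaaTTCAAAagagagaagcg
The matches are a description of these windows and not of binding. Measured members with a CCAAT box (20) and without one (12) had passage medians of -0.97 and -0.98 and genotype medians of 0.57 and 0.53. Those with a CHR (13) and without one (19) had passage medians of -0.89 and -0.98 and genotype medians of 0.54 and 0.55. These medians lay close together, and the gaps between them were not tested.

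Kinetochore and centromere genes had the smallest share of members called by passage among the 7 function groups, 42.9% against 13.8% of all features. That rank rests on few genes, some of them near background. Of the further kinetochore genes outside the list, described below, 50% were called lower. Of 8 listed, 7 were measured, and 3 of them fell in secondary spheres, Cenpa, Knstrn and Spc24, with a group median of -0.65. Cenpa, the histone H3 variant that marks the centromere, read 11.44 on the Wip1-Tg secondary array and 11.11 and 10.86 on the wt secondary arrays, against 12.61 and 12.72 on the Wip1-Tg primary arrays and 12.21 on the wt primary array. The passages did not overlap, and within each passage Wip1-Tg lay above wt. Cenpa fell by 1.22 on the log2 scale in secondary spheres (SE 0.126, 2.33-fold lower, adjusted p = 0.00149), the smallest adjusted p of any member. Its genotype difference was 0.46 (SE 0.126, adjusted p = 0.441). A second Cenpa probe gave a smaller passage difference of -0.12.

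Knstrn encodes the small kinetochore-associated protein (kinastrin), which helps chromosomes align. It read 7.53 in Wip1-Tg secondary and 6.95 and 6.87 in wt secondary spheres, against 8.67 and 8.92 in Wip1-Tg primary and 7.64 in wt primary spheres. The Wip1-Tg secondary array came close to the wt primary one but stayed below it. Knstrn fell by 1.00 with passage (SE 0.163, adjusted p = 0.00703), and its genotype difference of 0.89 had the smallest unadjusted p of any member, 0.00116, yet an adjusted p of 0.4345. Ndc80, the kinetochore subunit that grips microtubules, read 7.73 in Wip1-Tg secondary and 6.84 and 6.16 in wt secondary spheres, against 7.95 and 8.15 in Wip1-Tg primary and 7.48 in wt primary spheres. Here the passages overlapped, because the Wip1-Tg secondary array lay above the wt primary one. The passage difference of -0.65 did not pass (SE 0.237, adjusted p = 0.0847), and the genotype difference of 0.90 (SE 0.237, adjusted p = 0.4345) was among the largest of the members.

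The 4 kinetochore genes short of the passage threshold were Ndc80, Cenpf, Spc25 and Nuf2, and the last 3 are named here after their values were seen. Nuf2, the partner of Ndc80 in the same complex, was the sole member with a positive passage difference, 0.29 (SE 0.352, adjusted p = 0.571). It was detected on Wip1-Tg primary 2, wt secondary 1 and Wip1-Tg secondary 1 alone, so its levels on the other 3 arrays are those of background. Cenpf, a large protein of the outer kinetochore, was detected on 4 arrays and had the genotype difference nearest to 0 among the 39, 0.06.

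Of 7 genes of the spindle checkpoint and the anaphase-promoting complex, 4 were measured. Ube2c had to be lower in secondary spheres, since it passed the filter through the primary arrays alone, and the other 3 fell. Cdc20, which activates the anaphase-promoting complex and is held by the checkpoint, read 10.20 in Wip1-Tg secondary and 9.78 and 9.31 in wt secondary spheres, against 11.30 and 11.44 in Wip1-Tg primary and 10.78 in wt primary spheres. Bub1b, which encodes the checkpoint protein BubR1, read 8.49 in Wip1-Tg secondary and 8.06 and 7.15 in wt secondary spheres, against 9.66 and 9.59 in Wip1-Tg primary and 8.84 in wt primary spheres. For both genes the passages were apart and Wip1-Tg lay above wt within each. Cdc20 fell by 1.20 (SE 0.16, 2.3-fold lower, adjusted p = 0.00351) and Bub1b fell by 1.19 (SE 0.244, 2.28-fold lower, adjusted p = 0.0154). Their genotype differences were 0.62 (SE 0.16) and 0.83 (SE 0.244), with adjusted p-values of 0.4345 and 0.4451. All 4 Cdc20 probes gave a like result, with passage differences between -1.20 and -1.14 and genotype differences between 0.46 and 0.69. Ube2c, the ubiquitin-conjugating enzyme of the complex, was above background on none of the secondary arrays, and it was at least 1.1-fold lower there (adjusted p = 0.04, fitted fold 1.45).

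Of Cdk1, the cyclins and their modulators, 3 of 7 genes were measured and all 3 fell. Ccnb1 had no probe, Ccnb2 was detected on no array, Ccna2 on 1 and Cks2 on 2, so the mitotic cyclins themselves are not described. Cdk1, the kinase that drives entry into mitosis, read 9.995 in Wip1-Tg secondary and 9.39 and 8.80 in wt secondary spheres, against 10.56 and 10.79 in Wip1-Tg primary and 10.35 in wt primary spheres. Cdkn3, a phosphatase that acts on cyclin-dependent kinases, read 8.41 in Wip1-Tg secondary and 8.04 and 7.57 in wt secondary spheres, against 9.57 and 9.77 in Wip1-Tg primary and 9.14 in wt primary spheres. Cdca3, a trigger of mitotic entry, read 9.61 in Wip1-Tg secondary and 9.28 and 8.69 in wt secondary spheres, against 10.80 and 10.96 in Wip1-Tg primary and 10.44 in wt primary spheres. The 3 genes shared 1 order of arrays, wt secondary 2 the lowest and Wip1-Tg primary 2 the highest. Cdca3 fell by 1.36 (SE 0.185, 2.56-fold lower, adjusted p = 0.00376), the largest fall of the members on the reported probes. A second, dimmer Cdca3 probe had a passage difference of -0.66, which did not pass (adjusted p = 0.108 with limma, every probe a feature of its own). Cdkn3 fell by 1.30 (SE 0.164, adjusted p = 0.00295) and Cdk1 fell by 0.97 (SE 0.216, 1.96-fold lower, adjusted p = 0.0198). Genotype differences were 0.54 for Cdca3, 0.57 for Cdkn3 and 0.62 for Cdk1, with adjusted p-values of 0.4451 to 0.4812.

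Of 10 genes of the mitotic kinases, their activators and the chromosomal passenger complex, 9 were measured. Of these, 8 fell with passage and Melk, named after its values were seen, did not pass (difference -0.59, adjusted p = 0.0929). The reported Melk probe was detected on 5 arrays and read low, between 5.29 and 6.81. Plk1, the polo-like kinase that acts at centrosomes and kinetochores, read 9.82 in Wip1-Tg secondary and 9.28 and 8.59 in wt secondary spheres, against 10.54 and 10.79 in Wip1-Tg primary and 10.04 in wt primary spheres. Aurka, the Aurora kinase of the spindle poles, read 8.53 in Wip1-Tg secondary and 8.01 and 7.42 in wt secondary spheres, against 9.45 and 9.52 in Wip1-Tg primary and 9.04 in wt primary spheres. Each gene kept the passages apart, with the Wip1-Tg array above wt in each passage. Plk1 fell by 0.97 (SE 0.212, adjusted p = 0.0183) and Aurka fell by 1.14 (SE 0.192, 2.21-fold lower, adjusted p = 0.00783). Aunip, an interactor of Aurora A and ninein, read 6.80 in Wip1-Tg secondary and 5.84 and 5.83 in wt secondary spheres, against 7.68 and 7.42 in Wip1-Tg primary and 7.02 in wt primary spheres. Cdca8 (borealin), a subunit of the passenger complex with Aurkb, Birc5 and Incenp, read 10.05 in Wip1-Tg secondary and 9.66 and 9.23 in wt secondary spheres, against 11.08 and 11.21 in Wip1-Tg primary and 10.52 in wt primary spheres. The wt secondary arrays nearly coincided for Aunip, whereas they were apart for Plk1, Aurka and Cdca8. Aunip fell by 0.97 (SE 0.15, adjusted p = 0.00591) and Cdca8 fell by 1.08 (SE 0.152, adjusted p = 0.0042). The group had the widest separation by genotype within secondary spheres, a median of 0.81, with 0.54 within primary spheres. Plk1 had a genotype difference of 0.76 (SE 0.212, adjusted p = 0.441) and Aunip of 0.75 (SE 0.15, adjusted p = 0.4345). The 4 passenger complex genes Aurkb, Birc5, Incenp and Cdca8 all fell, with passage differences between -1.08 and -0.93.

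Motors and spindle assembly factors held 9 measured genes of 11. Dlgap5 had to be lower in secondary spheres, by the way it passed the filter, and of the other 8, 7 fell. Kif22, the chromokinesin Kid, read 9.27 in Wip1-Tg secondary and 9.09 and 8.70 in wt secondary spheres, against 10.55 and 10.53 in Wip1-Tg primary and 9.94 in wt primary spheres. Nusap1, which bundles spindle microtubules near chromosomes, read 9.81 in Wip1-Tg secondary and 9.28 and 8.89 in wt secondary spheres, against 10.59 and 10.66 in Wip1-Tg primary and 10.53 in wt primary spheres. By genotype the primary arrays of Nusap1 lay close together and the secondary ones apart. Kif22 fell by 1.16 (SE 0.15, 2.23-fold lower, adjusted p = 0.00322) and Nusap1 fell by 1.13 (SE 0.189, 2.19-fold lower, adjusted p = 0.00774). Kif11, the motor Eg5 that pushes spindle poles apart, read 8.07 in Wip1-Tg secondary and 7.27 and 6.78 in wt secondary spheres, against 8.34 and 8.47 in Wip1-Tg primary and 8.08 in wt primary spheres. Kif4, a chromosome-arm motor, read 8.16 in Wip1-Tg secondary and 7.70 and 6.92 in wt secondary spheres, against 8.76 and 8.80 in Wip1-Tg primary and 8.42 in wt primary spheres. The Wip1-Tg secondary array of Kif11 all but reached the wt primary one. Kif11 lay just outside the passage threshold (difference -0.69, SE 0.214, adjusted p = 0.0534), and Tpx2 (adjusted p = 0.047) just inside it. Kif4 fell by 0.87 (SE 0.234, adjusted p = 0.0362). Dimmer probes of Kif4 had passage differences of -0.74, which passed, and -0.42, which did not, with every probe a feature of its own. A dimmer Nusap1 probe had -0.56, which did not pass either. The genotype differences of Kif11 and Kif4 were 0.69 and 0.60, with adjusted p-values of 0.4503 and 0.4855. Dlgap5, a microtubule-binding spindle protein, was above background on 0 of 3 secondary arrays and was at least 1.4-fold lower there (adjusted p = 0.0257, fitted fold 1.62).

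Kif23, the motor subunit of centralspindlin, was the one member with a negative genotype difference, and it is named after its values were seen. Its reported probe, the brightest of 3, is annotated to a cDNA clone and read 8.61 in Wip1-Tg secondary and 8.87 and 9.09 in wt secondary spheres, against 9.53 and 9.30 in Wip1-Tg primary and 10.02 in wt primary spheres. That gave a genotype difference of -0.49 (SE 0.139, adjusted p = 0.441) and a fall of 0.92 with passage (adjusted p = 0.00547). The other 2 probes, annotated to the RefSeq transcript, ran the opposite way by genotype. One read 7.54 in Wip1-Tg secondary and 6.69 and 5.35 in wt secondary spheres, against 9.35 and 10.47 in Wip1-Tg primary and 9.95 in wt primary spheres. The other read 7.82 in Wip1-Tg secondary and 7.31 and 5.94 in wt secondary spheres, against 8.40 and 8.74 in Wip1-Tg primary and 8.39 in wt primary spheres. Both placed wt secondary 2 far below every other array, as most members did, while the reported probe did not. Their genotype differences were 0.74 and 0.69 and their passage differences -3.15 and -1.26, in the fit with every probe as a feature of its own. With the mean of its probes Kif23 had a genotype difference of 0.31. Of 16 members with several kept probes, the sign by genotype varied between probes for 2, Kif23 and Dlgap5, and the sign by passage for 0.

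**Figure D2:**
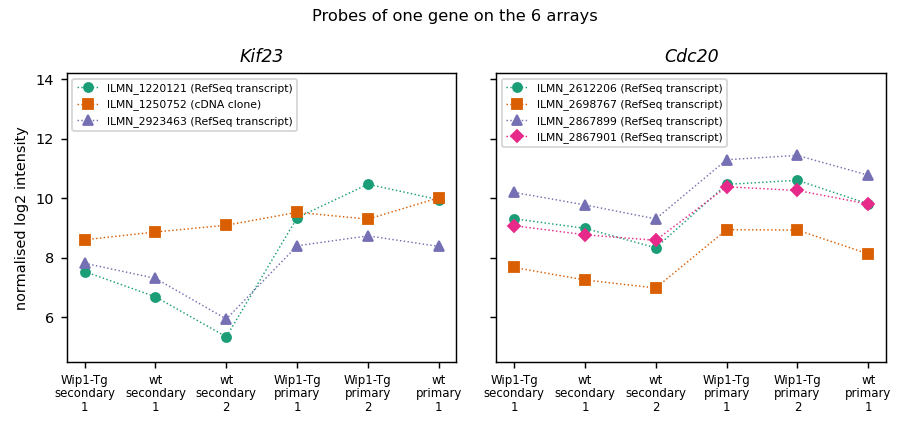
Normalised log2 intensity (vertical axis) of each kept probe of Kif23 (left) and Cdc20 (right) on the 6 arrays (horizontal axis), 1 colour and symbol per probe, with dotted lines joining the points of a probe. The 4 Cdc20 probes run in parallel, whereas the Kif23 cDNA clone probe (squares) is lowest in Wip1-Tg secondary spheres at 8.61 and both RefSeq transcript probes are lowest in wt secondary 2, at 5.35 and 5.94.

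Central spindle and cytokinesis genes mostly fell with passage. Of 5 listed, 4 were measured, 3 fell, and Ect2, the exchange factor that activates RhoA at the cleavage site, did not pass (difference -0.40, adjusted p = 0.156). Its sole kept probe, annotated to a cDNA clone, was detected on 5 arrays and read low, between 4.91 and 5.80. Prc1, the bundler of central spindle microtubules, read 11.27 in Wip1-Tg secondary and 10.78 and 10.38 in wt secondary spheres, against 12.18 and 12.26 in Wip1-Tg primary and 11.77 in wt primary spheres. Anln (anillin), a scaffold of the contractile ring, read 8.65 in Wip1-Tg secondary and 8.36 and 8.15 in wt secondary spheres, against 9.76 and 9.72 in Wip1-Tg primary and 9.17 in wt primary spheres. Cep55, which recruits the abscission machinery to the midbody, read 5.85 in Wip1-Tg secondary and 5.32 and 4.95 in wt secondary spheres, against 6.42 and 6.66 in Wip1-Tg primary and 6.22 in wt primary spheres. None of the 3 overlapped between passages, and Cep55 was not above background on wt secondary 2. Prc1 fell by 1.07 (SE 0.152, 2.09-fold lower, adjusted p = 0.00448), Anln fell by 1.00 (SE 0.124, adjusted p = 0.00274) and Cep55 fell by 0.89 (SE 0.17, adjusted p = 0.0122). Genotype differences were 0.57 for Prc1 and 0.48 for Anln, both with an adjusted p of 0.4345, and 0.51 for Cep55 (adjusted p = 0.4577).

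Genes of mitotic chromosome structure had the highest genotype median of the function groups, 0.68, though none passed. Mki67, the Ki-67 gene, had no probe. Top2a, the topoisomerase that untangles sister chromatids, read 9.54 in Wip1-Tg secondary and 8.70 and 7.96 in wt secondary spheres, against 10.10 and 10.18 in Wip1-Tg primary and 9.51 in wt primary spheres. Cdca2, which targets a phosphatase to chromatin at mitotic exit, read 8.08 in Wip1-Tg secondary and 7.69 and 6.99 in wt secondary spheres, against 9.25 and 9.20 in Wip1-Tg primary and 8.598 in wt primary spheres. The Wip1-Tg secondary array of Top2a lay at the level of the wt primary one, so that its passages overlapped. Top2a had the largest genotype difference of the 39 members, 0.92 (SE 0.237, 95% interval 0.35 to 1.48, unadjusted p = 0.00693, adjusted p = 0.4345), and fell by 0.89 with passage (SE 0.237, 1.86-fold lower, adjusted p = 0.0341). A second, dimmer Top2a probe gave 0.31 by genotype and -0.72 by passage. Cdca2 fell by 1.20 (SE 0.2, 2.3-fold lower, adjusted p = 0.0076), with a genotype difference of 0.68 (adjusted p = 0.4454). Cdca5 (sororin), which protects cohesion, also fell (difference -0.55, adjusted p = 0.042).

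**Figure D3:**
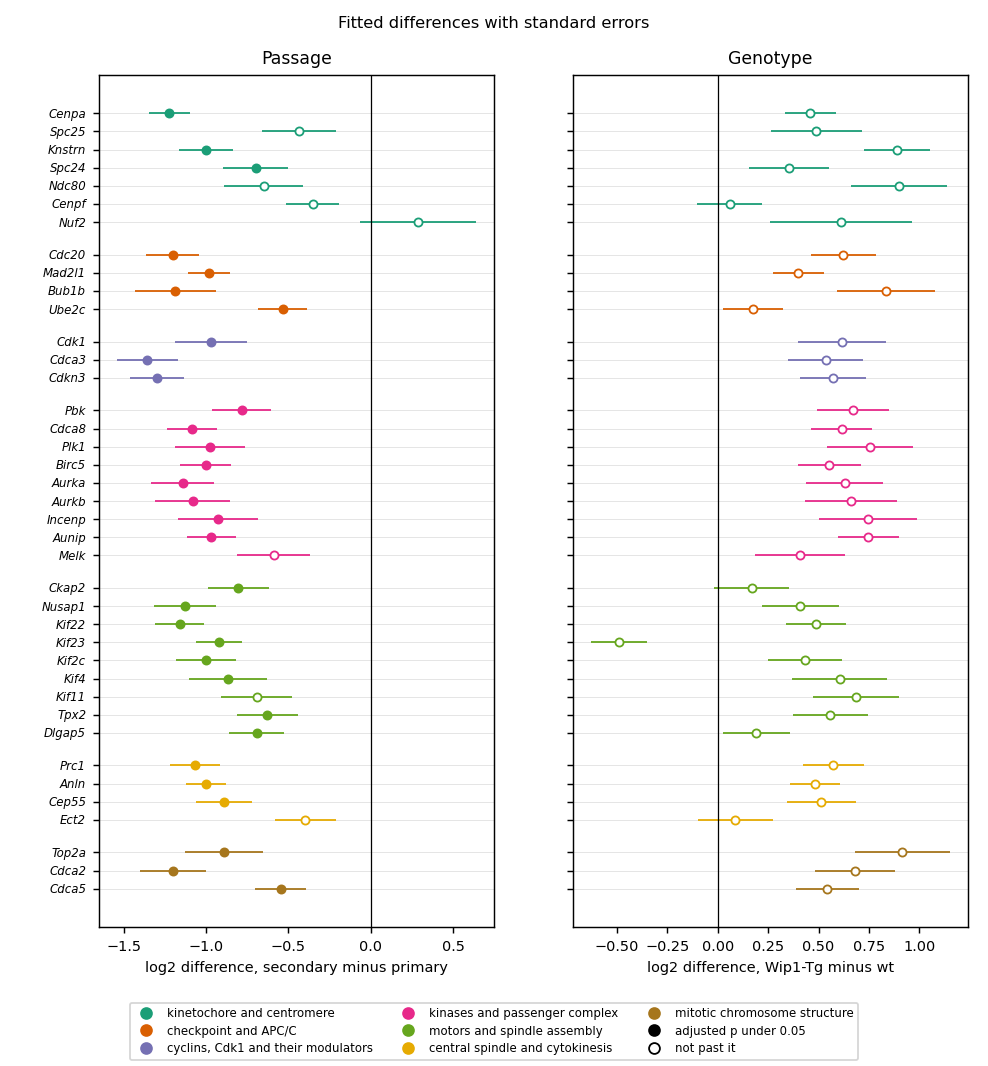
Fitted log2 differences (horizontal axes) of the 39 measured members, secondary minus primary on the left and Wip1-Tg minus wt on the right, with bars of 1 standard error and colours by function group. Filled points passed an adjusted p under 0.05: 32 on the left, all negative, and 0 on the right, where 38 points lie above 0 and Kif23 below.

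The other 13 listed genes had no measured level. Ccnb1 and Mki67 had no probe, and 5 genes with probes, Bub1, Ccnb2, Nek2, Hmmr and Racgap1, were detected on no array. Cenpe, Ttk, Ccna2 and Kif20a were each detected on 1 array and Pttg1 and Cks2 on 2. Of these 6, Pttg1 (securin) was detected on Wip1-Tg primary 1 and wt primary 1, and Cks2, which binds Cdk1, on Wip1-Tg primary 2 and wt primary 1.

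Replicate arrays differed by about as much as the genotypes in one pair and by less in the other. Taken pair by pair, the Wip1-Tg secondary array was above wt secondary 1 for 33 of 39 members (median difference 0.42) and above wt secondary 2 for 37 (0.89). The wt secondary arrays themselves differed, wt secondary 1 lying above wt secondary 2 for 37 of 39 members with a median of 0.43, while over all features that median was 0.00. Among primary spheres, Wip1-Tg primary 1 and 2 were above the wt array for 36 and 37 members (medians 0.40 and 0.52), and Wip1-Tg primary 2 was above Wip1-Tg primary 1 for 30 (median 0.13). Without wt secondary 2 the median genotype difference was 0.45 and 36 members stayed positive. Within primary spheres it was 0.47 (37 positive) and within secondary spheres 0.65 (36 positive). The 4 arrays with Xist signal include no wt primary array. The genotype difference fitted to them, a median of 0.65, is therefore the within-secondary difference again and not a separate check. With 1 array in a group of each passage, that array is assumed to vary like the others.

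Centred on each gene's own mean, the members' median level was -0.15 on the Wip1-Tg secondary array, -0.58 and -0.98 on the wt secondary arrays, 0.64 and 0.78 on the Wip1-Tg primary arrays and 0.24 on the wt primary array. The Wip1-Tg secondary array thus sat between the wt secondary arrays and the wt primary array, above wt primary 1 for 4 of 39 members (median difference -0.36).

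**Figure D4:**
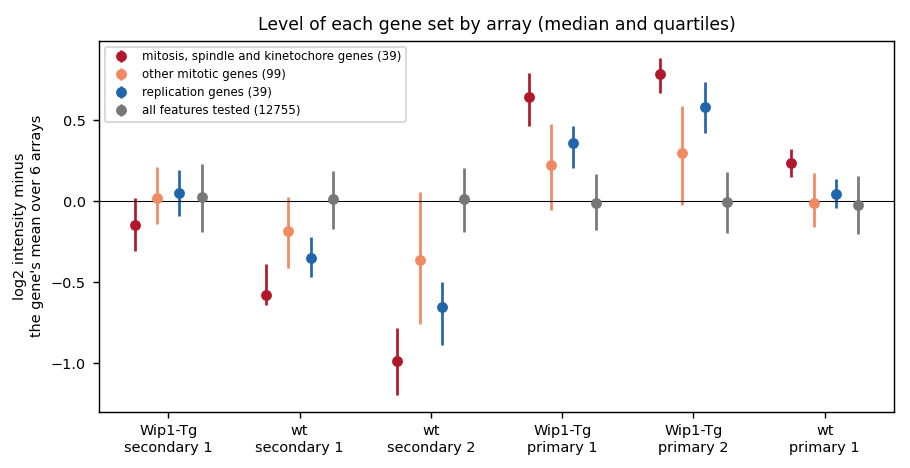
Median and quartiles (points and bars) of log2 intensity minus each gene's mean over the 6 arrays (vertical axis), for the 39 members, 99 other mitotic genes, 39 replication genes and all 12755 features, on each array (horizontal axis). The members range between -0.98 on wt secondary 2 and 0.78 on Wip1-Tg primary 2, while the medians of all features stay near 0.

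Within each genotype, the passage difference has the values of the fits above that left out the lone array of the other genotype. It is therefore no further test. Within Wip1-Tg, 15 members were called lower in secondary spheres (7.6% of all features), with a median of -0.83. Within wt, 14 were called lower (5.93% of all features), with a median of -1.04. An interaction term, which asks whether the genotype difference changed with passage, was called for 0 members and 0% of features with limma. At an unadjusted p under 0.05 it held for 0 members, against 9.38% of all features, and the smallest adjusted p of a member was 0.5639 (Nusap1, 0.64).

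Some markers of other cell types were called by passage in the same spheres. Over all features, 14.3% were called higher and 13.8% lower in secondary spheres. All 9 astrocyte markers were measured, and 5 were called higher and 1 lower in secondary spheres. Their summed linear intensity was 101600 in Wip1-Tg secondary and 116500 to 117700 in wt secondary spheres, against 62120 to 70680 in Wip1-Tg primary and 73250 in wt primary spheres. Of 11 neural stem and progenitor markers 7 were measured, 2 called higher and 1 lower in secondary spheres with a median passage difference of 0.08, and their sum was 24790 in Wip1-Tg secondary and 18210 to 21470 in wt secondary spheres, against 29140 to 29230 in Wip1-Tg primary and 34220 in wt primary spheres. Astrocyte marker sums were thus higher in secondary spheres, and lower in Wip1-Tg than in wt within each passage, whereas the stem marker sum, which is weighted to its brightest probes, was lower in secondary spheres while the median of the list was not. Ependymal markers (4 of 8 measured, 3 called lower) summed to 441.8 in Wip1-Tg secondary and 395.0 to 400.9 in wt secondary spheres, against 623.6 to 732.3 in Wip1-Tg primary and 843.0 in wt primary spheres. Oligodendrocyte lineage markers (9 of 11 measured, 2 called lower) summed to 34550 in Wip1-Tg secondary and 36060 to 40910 in wt secondary spheres, against 31550 to 33730 in Wip1-Tg primary and 32350 in wt primary spheres. Neuroblast and neuron markers (7 of 11 measured, 1 called higher and 2 lower) summed to 4793 in Wip1-Tg secondary and 4429 to 4508 in wt secondary spheres, against 5119 to 5312 in Wip1-Tg primary and 5085 in wt primary spheres. Microglia, endothelial and mural cell markers were measured for 2 of 12, 1 of 8 and 1 of 9, and 0 were called by passage. Most of their defining genes, Cx3cr1, Pecam1 and Pdgfrb among them, thus did not pass the detection filter. No marker list had a member called by genotype. The part of any of these cells in the mitotic differences was not tested.

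Genes outside the list but of related function help to place it. Of 130 other mitotic genes, 99 were measured, 33 of them fell (33.3%, against 13.8% of all features) and 10 rose (14.3% of all features did) in secondary spheres, with a median of -0.21. Of these, Cenpq and Anapc10 passed the filter through 1 passage alone, and among the other 97, 32 fell and 9 rose. By genotype 84 were positive (51.7% of all features), with a median of 0.27, and 0 were called. At an unadjusted p under 0.05, 40 were higher and 1 was lower in Wip1-Tg (4.93% and 5.15% of all features). The 3 with the smallest p by passage were Cenpq, Pkmyt1 and Gtse1. Cenpq, a kinetochore subunit, read 4.68 in Wip1-Tg secondary and 4.97 and 4.56 in wt secondary spheres, against 7.43 and 7.66 in Wip1-Tg primary and 8.01 in wt primary spheres. It was above background on 0 of 3 secondary arrays, passed the filter through the primary arrays alone, and was at least 5.21-fold lower in secondary spheres (adjusted p = 0.000266). Pkmyt1, the kinase that restrains Cdk1 before mitosis, ran the opposite way, at 8.83 in Wip1-Tg secondary and 9.01 and 9.24 in wt secondary spheres, against 7.30 and 7.47 in Wip1-Tg primary and 7.03 in wt primary spheres (difference 1.77, adjusted p = 0.00146). Gtse1 fell by 1.13 (adjusted p = 0.00157). By genotype the smallest p-values were those of Ccnf, the cyclin F gene (0.59), Haus5, an augmin subunit (0.55), and Cenpn, a centromere protein (0.62), each with an adjusted p of 0.4345.

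Within that wider list, 26 checkpoint, complex and entry genes were measured, with a median of 0.02. Of these, 4 fell (15.4%, near the 13.8% of all features) and 8 rose (14.3% of all features did). Anapc10, 1 of the 8, passed the filter through the secondary arrays alone. Of 26 further kinetochore genes 13 fell (50%, against 13.8% of all features), Cenpq included, and 0 rose, with a median of -0.62. Of 20 further motor and spindle genes 8 fell (40%, against 13.8% of all features) and 1 rose (14.3% of all features did). Differences between these groups were not tested.

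Transcription factors of the mitotic programme were measured for 18 of 22 genes, of which 4 fell (22.2%, against 13.8% of all features) and 1 rose with passage. Foxm1, which drives late cell cycle genes, read 7.92 in Wip1-Tg secondary and 7.31 and 6.70 in wt secondary spheres, against 8.59 and 8.51 in Wip1-Tg primary and 8.05 in wt primary spheres. It fell by 0.84 with passage (adjusted p = 0.0243), with a genotype difference of 0.71 (adjusted p = 0.441). Mybl2, the B-Myb gene, read 7.65 in Wip1-Tg secondary and 7.25 and 6.87 in wt secondary spheres, against 7.81 and 8.09 in Wip1-Tg primary and 7.36 in wt primary spheres. Its passage difference of -0.30 (adjusted p = 0.191) and genotype difference of 0.59 (adjusted p = 0.4345) did not pass. The activator E2F genes were lower too: E2f1 fell by 0.71 (adjusted p = 0.0142), E2f2 fell by 0.87 (adjusted p = 0.0244) and E2f3 fell by 0.80 (adjusted p = 0.0104). Their genotype differences were 0.05, 0.75 and -0.18, with adjusted p-values of 0.9373, 0.441 and 0.6914. Tfdp2, an E2F partner, rose by 0.70 with passage (adjusted p = 0.0192).

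Replication genes, which act earlier in the cell cycle, were measured for 39 of 45. With passage 17 fell (43.6%, against 13.8% of all features) and 0 rose (14.3% of all features did), with a median of -0.48. All 39 had a positive genotype difference, as had 51.7% of all features. The genotype median was 0.53, against 0.01 over all features, and 0 were called (0% of all features). Of the genes with the smallest p by passage, Pold1, the catalytic subunit of DNA polymerase delta, fell by 0.84 (adjusted p = 0.00721), Dnmt1, the maintenance methyltransferase, fell by 0.73 (adjusted p = 0.00864) and Dbf4, the activator of Cdc7 kinase, fell by 0.78 (adjusted p = 0.0105). By genotype the smallest p-values were those of Dut, Chaf1a and Rfc5, with differences of 0.67, 0.79 and 0.57 and an adjusted p of 0.4345 each. The median passage difference of the mitotic members, -0.97, was thus lower than that of the replication genes, while the genotype medians of 0.56 and 0.53 were close; neither gap was tested.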

How the data were processed

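RNA was measured on 6 Illumina MouseWG-6 arrays. Per the file headers, the deposited non-normalized table gives 45281 probes with, per array, an intensity and a detection p-value. A second deposited table has the intensity after quantile normalization, as its values show (every column median 161.57). Scanner software is not given in the sources used here. For this work, background correction and quantile normalization used neqc of limma 3.58.1 (R 4.3.3), with an offset of 16 and log2. Probes with a detection p-value under 0.05 on at least 3 arrays were kept (18274). Names came from the platform annotation, updated through RefSeq (GRCm38.p6): 34885 probes had 1 symbol, 18 several and 10378 none. The brightest kept probe stood for a gene, giving 12755 features (10167 named). limma's additive model of genotype and passage left 3 residual degrees of freedom and the interaction model 2, with eBayes, p-values adjusted by Benjamini-Hochberg across all features and called under 0.05. A fold is given as "at least" where a group was not above background. The fits were tested on simulated data.

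Genes given with every array's values were Top2a, Cdk1, Knstrn and Aunip and the members with the 2 largest differences per function group and factor; other genes were taken by smallest p. The members, lists and tests were chosen with earlier results of these data known. In all, 19 alternatives were tried. The fits without background correction and to the deposited normalized values gave the same medians and counts, so they are not separate checks. The number of arrays limits the precision.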

Additional observations from a re-analysis of the deposited data

How the results depend on the processing

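Under all 19 alternatives 0 members were called by genotype or by interaction (the interaction was fitted under 11 of them), and 0 were called higher by passage. The genotype median of 0.56 was 0.89 with passage left out of the model and otherwise between 0.33 and 0.65 (0.45 to 0.65 leaving out single arrays). The count called lower in secondary spheres, 32, was 3 without eBayes moderation (918 features called in all) and 3 on the 4 arrays with Xist signal. Leaving out single arrays it lay between 14 and 29. The passage median was -1.29 with median scaling, where the median of all features was -0.24 by passage and -0.19 by genotype and 3235 of 3861 called features were lower (1757 of 3583 with quantile normalization and the other settings as reported). There 35 of 39 members were called lower by passage and 35 had a positive genotype difference. The passage median lay between -1.04 and -0.81 leaving out single arrays. Of the 32 members called by passage, 1, Cenpa, was called under all 19 alternatives. None of these took the second Cenpa probe alone, which had a passage difference of -0.12. Signs turned for 5 members by genotype. Cenpf was -0.022 with median scaling and between -0.028 and 0.155 leaving out single arrays. Ect2 was -0.022 with median scaling and between -0.044 and 0.202 leaving out single arrays. Ckap2 was -0.058 with median scaling, -0.117 on the 4 arrays with Xist signal and between -0.117 and 0.453 leaving out single arrays. Dlgap5 was -0.085 on those 4 arrays and between -0.085 and 0.469 leaving out single arrays. Kif23 was 0.312 with the mean of its probes. Nuf2 turned by passage (-0.50 on the 4 arrays with Xist signal). Apart from the smaller number of arrays or residual degrees of freedom in some fits, the cause was not tested. No paired analysis was possible, because the labels link no arrays as pairs and the wt primary and Wip1-Tg secondary groups have 1 array each.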
